A study of Mus musculus with 15 samples.

Results

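The transcripts described here encode the subunits of the transcription factor AP-1 that belong to the Fos family (Fos, Fosb, Fosl1 and Fosl2) and to the Jun family (Jun, Junb and Jund). Probes were taken as belonging to these genes when the gene name in the array files, or the current symbol of the RefSeq accession listed for the probe, was 1 of those 7 names. This gave 9 of the 41174 non-control probes on the array and 7 of the 27644 gene names. All 7 genes were measurable in at least 1 group and were tested.

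Uterine RNA from ovariectomized mice of the outbred CD-1 stock was hybridised to 15 single-dye Agilent mouse arrays. The groups were E2 24 h, E3 24 h, E2 2 h, E3 2 h and vehicle, with 3 arrays each. The labels write only E2 and E3, taken here to be estradiol and estriol, of which estriol has a further hydroxyl on its D ring. Either oestrogen was injected once at 250 ng in 100 µl of saline, and vehicle animals received 100 µl of saline. Uteri were collected 24 h or 2 h after injection, and the labels do not say at which of these times the vehicle uteri were taken. All groups shared ovariectomy, so the animals lacked ovarian hormones at injection, and frozen uterine tissue was crushed for RNA. The labels give no age for the mice. The labels number the replicates of a group without saying that they came from separate animals. Each p-value is therefore set against the spread of these samples alone, part of which may be technical.

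AP-1 is a dimer of basic leucine zipper proteins. Jun proteins pair with each other or with Fos proteins, whereas Fos proteins need a Jun partner to bind DNA at the AP-1 site. Fos, Fosb and Junb are textbook immediate early genes, which are transcribed within minutes of a stimulus from factors already present in the cell, and Fos is a long-known early oestrogen response of the rodent uterus. Fosl1 and Fosl2 (Fra-1 and Fra-2) lack the strong activation domain of Fos, and Jund is usually the most steadily expressed Jun gene.

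The DNA just upstream of 4 of these genes is shown because it holds a match to the letter patterns marked below. Fosl2 and Jund, searched in the same way, held none of the marked patterns. Whether these letters have a part in the changes of the transcripts was not tested. The sequences are the 120 bases before the annotated start, 5′ to 3′ on the strand of the gene, from RefSeq on the mouse build GRCm38.p6. Capitals mark TGACG, the core of the cAMP response element, TATAA, the TATA box letters, or TGACATCA, a variant of the AP-1 site.
Fos (chr12:85473770-85473889, plus strand): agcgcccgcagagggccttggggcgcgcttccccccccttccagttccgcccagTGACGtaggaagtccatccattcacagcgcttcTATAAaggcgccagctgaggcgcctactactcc
Fosb (chr7:19310046-19310165, minus strand): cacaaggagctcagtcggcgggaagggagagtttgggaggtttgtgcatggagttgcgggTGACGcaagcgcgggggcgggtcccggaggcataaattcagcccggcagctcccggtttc
Jun (chr4:95052223-95052342, minus strand): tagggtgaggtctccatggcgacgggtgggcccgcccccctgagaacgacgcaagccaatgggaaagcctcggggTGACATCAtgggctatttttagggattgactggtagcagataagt
Junb (chr8:84978749-84978868, minus strand): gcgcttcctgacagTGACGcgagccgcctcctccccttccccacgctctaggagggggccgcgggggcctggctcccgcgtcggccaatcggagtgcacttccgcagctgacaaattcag

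The 250 bases before the start were searched on both strands for 6 of the members, all but Fosl1. TGACG was found upstream of Fos, Fosb and Junb, and in 17.8% of the 32851 promoters of the same length in the table. TGACATCA was found upstream of Jun, and in 2.93% of all promoters. TATAA was found upstream of Fos, and in 22.8% of all promoters. The AP-1 site TGANTCA (6.75% of all promoters), the full cAMP response element TGACGTCA, which contains TGACG (1.55%), and the full oestrogen response element GGTCANNNTGACC (0.0639%) were found upstream of none of the 6. GGTCA, the half-site contained in the full oestrogen response element, was found upstream of Fosb and Jund, and in 35.2% of all promoters.

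Values below are log2 processed signals minus the 75th percentile of that array, so 0 is a bright probe and a difference of 1 is a doubling of the signal. Probes differ in how well they bind, so the level of a gene is compared between groups and never with the level of another gene. The 75th percentile signal of an array lay between 1053 and 1854 units, and 63.7% to 80.3% of its probe spots were well above background. The number of arrays, 3 a group, limits the precision. No probe of a member was saturated on any array. All markers written for epithelium, stroma, myometrium, endothelium and macrophages were well above background on all 15 arrays. In RNA from whole tissue, fewer cells of a type and less RNA per cell cannot be told apart. All 3 vehicle arrays lay on 1 slide of their own, so slide and vehicle cannot be told apart in any comparison with vehicle, whereas 3 vehicle arrays and some arrays of each oestrogen group were scanned on the same day.

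At 2 h all 7 AP-1 genes were higher than in vehicle with either oestrogen. Limma with Benjamini-Hochberg adjustment over the 20311 genes tested called all 7 at an adjusted p under 0.05. Fosl1 entered the test through the 2 h groups, where it was high, so it had to differ; under a filter that needs a probe well above background on each of the 15 arrays, 6 members were tested and 6 called with either oestrogen. Over all genes, 38.7% were called in either direction for E2 2 h against vehicle and 40.2% for E3 2 h. The median change of the members was 2.57 on the log2 scale with E2 and 2.86 with E3, while the median of all genes was -0.14 with E2 and -0.16 with E3. All 3 oestrogen arrays lay above all 3 vehicle arrays for every member and either oestrogen. How many of all genes were separated in this way was not counted, so the separation only describes the members. The vehicle arrays are shared by both comparisons, which are therefore not independent of each other. Markers of endometrial stroma were lower at 2 h, 4 of 10 called with E2 and 8 of 10 with E3 (median changes -0.57 and -0.93), and their part in the AP-1 values was not tested.

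**Figure D1:**
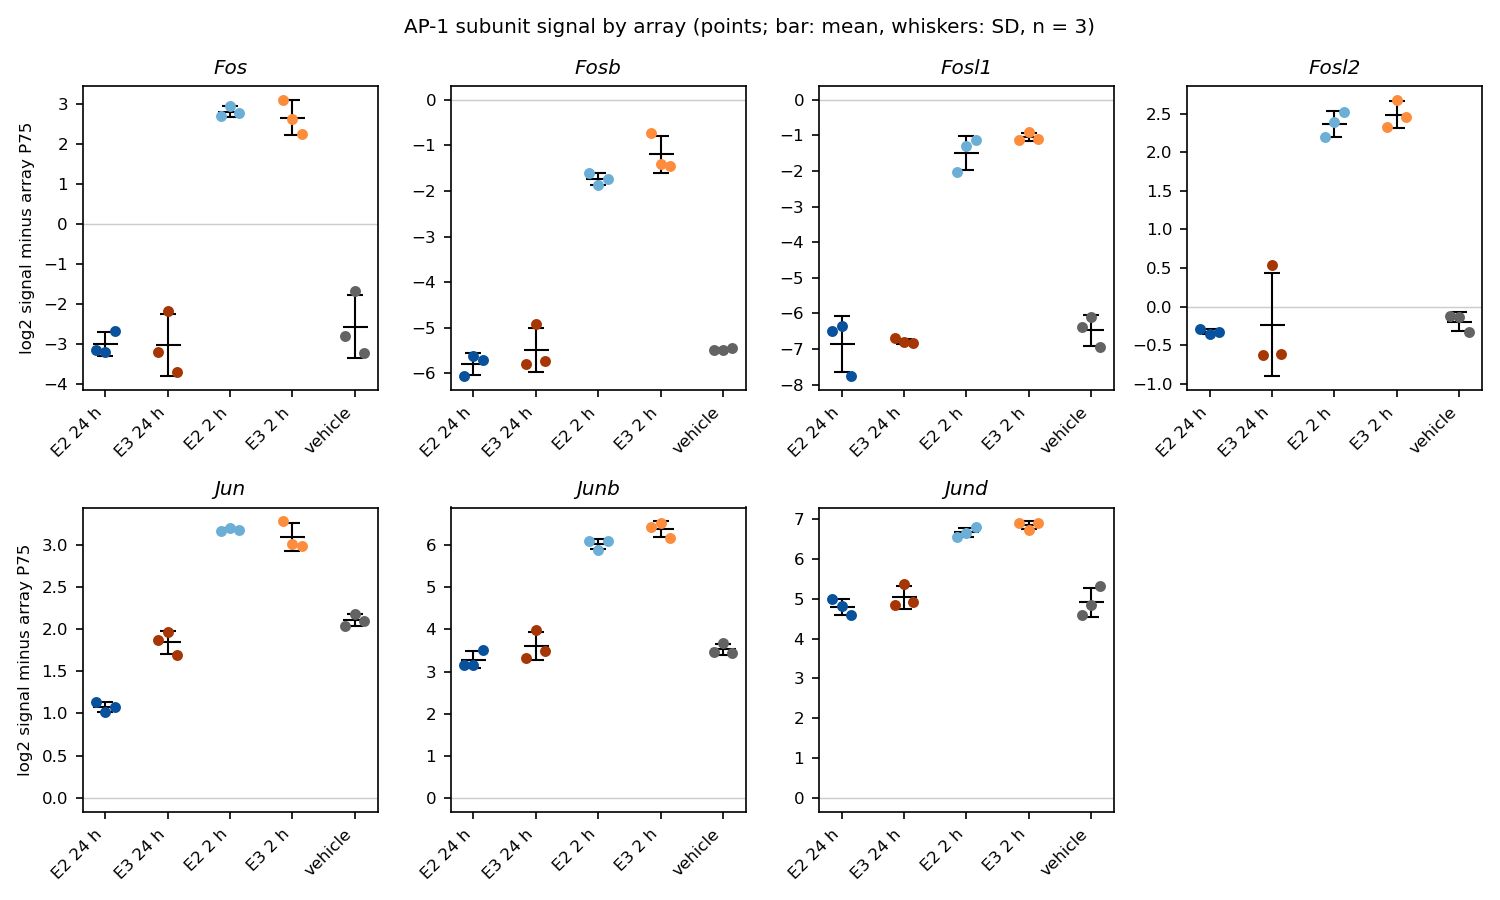
Log2 signal minus the array's 75th percentile (vertical axis) for the tested probe of each AP-1 gene in E2 24 h, E3 24 h, E2 2 h, E3 2 h and vehicle; points are arrays, bars are means and whiskers SD (n = 3). In every panel the 6 arrays at 2 h sit above the 9 others, and only for Jun do the 3 E2 24 h arrays sit below all arrays of every other group.

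Fos, the founding member of its family, gave -3.15, -3.21 and -2.67 in E2 24 h, -3.22, -2.19 and -3.71 in E3 24 h, 2.69, 2.96 and 2.78 in E2 2 h, 3.10, 2.63 and 2.24 in E3 2 h, and -2.80, -1.69 and -3.23 in vehicle. The 2 h arrays were the highest for both oestrogens, and the 24 h arrays overlapped vehicle, in which replicate 2 stood above the other 2. The rise at 2 h was 5.38 ± 0.41 with E2 (SE; 41.7-fold; adjusted p = 1.8e-06, limma) and 5.23 ± 0.41 with E3 (37.5-fold; adjusted p = 2.2e-06). By log2 change, Fos had rank 28 among the rises with E2 and rank 27 with E3. The Fos probe is printed in 10 spots, whose SD within an array was 0.0293 to 0.0992, well below the SD of 0.80 among vehicle arrays. The spread thus lay between arrays and not between spots. Whether it came from the samples or from the handling of each array cannot be told from spots of 1 array.

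Fosb gave -6.06, -5.61 and -5.70 in E2 24 h, -5.79, -4.92 and -5.73 in E3 24 h, -1.60, -1.88 and -1.73 in E2 2 h, -0.73, -1.40 and -1.45 in E3 2 h, and -5.48, -5.49 and -5.44 in vehicle. The 3 vehicle arrays were nearly identical, and both 2 h groups were far above them. All 3 E2 24 h arrays lay below vehicle, but that change was not called (-0.32, adjusted p = 0.29, limma). The rise was 3.74 ± 0.24 with E2 (SE; 13.3-fold; adjusted p = 4.7e-07) and 4.27 ± 0.24 with E3 (19.3-fold; adjusted p = 1.7e-07, limma).

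Fosl1, known from other systems as a later, AP-1-driven Fos family gene, gave -6.48, -6.35 and -7.77 in E2 24 h, -6.70, -6.80 and -6.83 in E3 24 h, -2.03, -1.31 and -1.12 in E2 2 h, -1.12, -0.91 and -1.09 in E3 2 h, and -6.38, -6.09 and -6.94 in vehicle. Outside the 2 h groups this probe was near background: it was well above it on 2 of 3 E2 24 h arrays, 1 of 3 E3 24 h arrays and 2 of 3 vehicle arrays. The rise at 2 h was 4.98 ± 0.35 with E2 (SE; 31.6-fold; adjusted p = 8.4e-07) and 5.43 ± 0.35 with E3 (43.1-fold; adjusted p = 4.5e-07, limma). Its size depends on the background correction: normexp with an offset of 50, which lifts dim signals, gave 3.04 with E2 and 3.44 with E3, both still called. The same correction gave 2.55 and 3.07 for Fosb, the other dim member.

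Fosl2 gave -0.29, -0.35 and -0.33 in E2 24 h, -0.63, 0.54 and -0.62 in E3 24 h, 2.19, 2.40 and 2.52 in E2 2 h, 2.33, 2.68 and 2.46 in E3 2 h, and -0.12, -0.14 and -0.33 in vehicle. The 2 h arrays were again above all others, and E3 24 h replicate 2 stood above the other 2 of its group. With E2 it rose by 2.57 ± 0.25 (SE; 5.92-fold; adjusted p = 9.9e-06, limma). With E3 it rose by 2.69 ± 0.25 (6.44-fold; adjusted p = 6.7e-06).

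Jun, 1 of the Jun family partners of Fos proteins, rose less than the other members. It gave 1.13, 1.02 and 1.08 in E2 24 h, 1.87, 1.96 and 1.69 in E3 24 h, 3.16, 3.19 and 3.18 in E2 2 h, 3.28, 3.00 and 2.99 in E3 2 h, and 2.04, 2.18 and 2.10 in vehicle. Only the 2 h groups overlapped each other, and the order of the groups was otherwise free of overlap, from E2 24 h at the bottom through E3 24 h and vehicle to the 2 h groups. The rise at 2 h was 1.07 ± 0.11 with E2 (SE; 2.10-fold; adjusted p = 1.1e-05) and 0.98 ± 0.11 with E3 (1.98-fold; adjusted p = 2.1e-05, limma). Its probe is also printed in 10 spots, with an SD within an array of 0.0275 to 0.0679.

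Junb, a Jun protein that is a weaker activator than Jun, gave 3.16, 3.17 and 3.52 in E2 24 h, 3.33, 3.98 and 3.50 in E3 24 h, 6.10, 5.90 and 6.10 in E2 2 h, 6.44, 6.54 and 6.18 in E3 2 h, and 3.47, 3.67 and 3.44 in vehicle. The rise was 2.51 ± 0.17 with E2 (SE; 5.69-fold; adjusted p = 7.9e-07) and 2.86 ± 0.17 with E3 (7.26-fold; adjusted p = 2.9e-07, limma). Jund gave 4.99, 4.82 and 4.59 in E2 24 h, 4.84, 5.37 and 4.91 in E3 24 h, 6.55, 6.65 and 6.79 in E2 2 h, 6.90, 6.72 and 6.90 in E3 2 h, and 4.60, 4.83 and 5.31 in vehicle. For both genes the 2 h arrays stood clear of all others, and the other 3 groups overlapped. Jund rose by 1.75 ± 0.19 with E2 (SE; 3.37-fold; adjusted p = 2.2e-05) and by 1.93 ± 0.19 with E3 (3.81-fold; adjusted p = 1.0e-05, limma).

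Fosl2 and Junb each had a further probe. The tested Fosl2 probe lies at chr5:31189767-31189826 and the other at chr5:31185231-31185290, on the build mm7 that the files name, so they read different parts of the gene. The other probe gave -3.72, -3.69 and -4.32 in E2 24 h, -4.60, -3.65 and -4.55 in E3 24 h, -2.22, -2.39 and -2.16 in E2 2 h, -2.35, -1.94 and -1.94 in E3 2 h, and -3.80, -2.76 and -3.81 in vehicle. Tested on its own, this probe rose by 1.20 ± 0.31 in E2 2 h against vehicle (SE; adjusted p = 0.0090, limma), and in E3 2 h by 1.38 ± 0.31 (adjusted p = 0.0037). Both Fosl2 probes rose at 2 h, the other by less than the tested one. Against vehicle at 24 h the other Fosl2 probe changed by -0.45 ± 0.31 with E2 (SE, adjusted p = 0.26, limma). With E3 at 24 h its change was -0.81 ± 0.31 (adjusted p = 0.079, limma), and neither was called. The Junb probes lie at chr8:83563097-83563156 (tested) and chr8:83563059-83563118 and share the 22 bases at which they overlap.
Junb, bases shared by both probes, as the array file gives them: TTCGTGTCTAAAGTCTATTTTA
The other Junb probe rose by 2.71 ± 0.17 with E2 and by 3.00 ± 0.17 with E3 (SE; adjusted p = 4.0e-07 and 1.7e-07, limma), close to the tested probe.

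**Figure D2:**
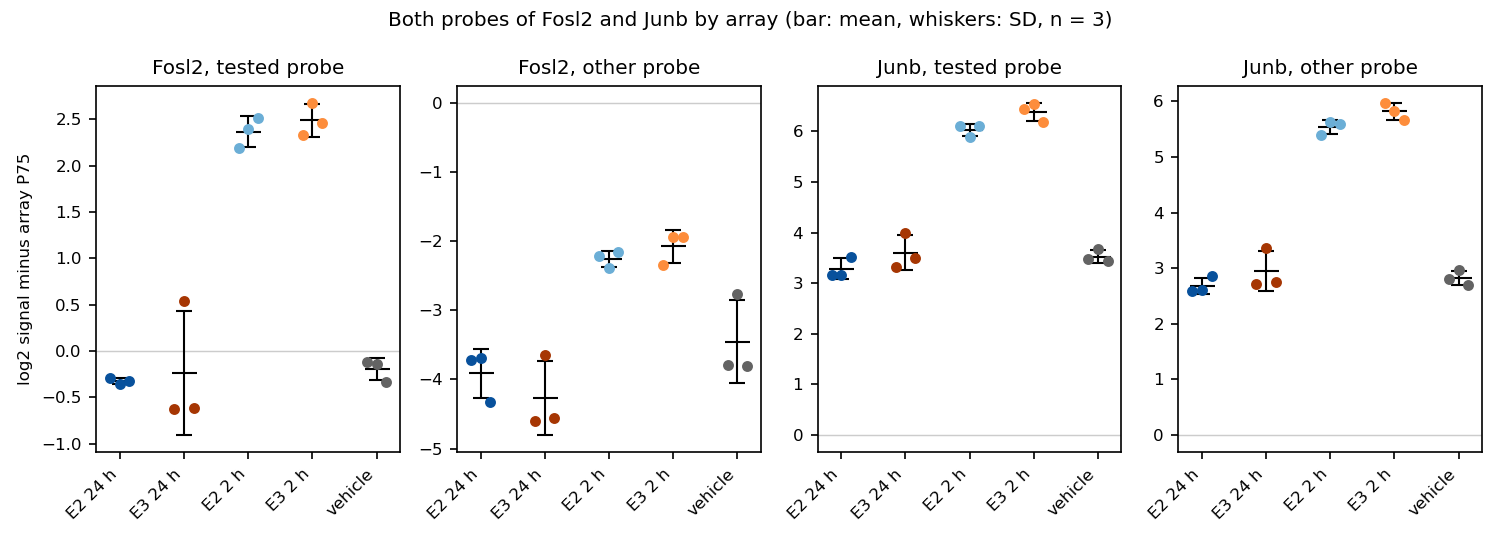
Log2 signal minus the array's 75th percentile (vertical axis) for the tested and the other probe of Fosl2 and Junb in each group; points are arrays, bars are means and whiskers SD (n = 3). Each axis has its own range, and all 4 probes are highest at 2 h.

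At 24 h Jun was below the vehicle level with E2, and no other member was called. With E2, 1 of the 7 members was called, against 43.4% of all genes in that comparison; this was Jun, which was lower. With E3, 0 of 7 were called by limma, against 20.4% of all genes. Among the tested probes only that of Jun had an unadjusted p under 0.05. The median change of the members was -0.32 with E2 and -0.04 with E3, and that of all genes was -0.02 and 0.00. Jun fell to a mean of 1.08 ± 0.06 in E2 24 h, against 2.11 ± 0.07 in vehicle (SD, n = 3 each), a change of -1.03 and a 95% interval of -1.26 to -0.80 (2.04-fold lower; adjusted p = 3.2e-05, limma). In E3 24 h Jun averaged 1.84 ± 0.14, against the same vehicle mean, a change of -0.27 with an interval of -0.50 to -0.03 (adjusted p = 0.095). All 3 E3 24 h arrays lay below all 3 vehicle arrays for Jun, but the difference did not pass the threshold over all genes. In E2 24 h against vehicle, where Jun was lower, 4 of 9 lymphocyte markers (median -0.94) and 4 of 7 endothelial markers (median -0.47) were also called lower. There 4 of 8 myometrial markers were called higher, and of 10 stromal markers 4 were higher and 3 lower. Of 10 epithelial markers 3 were higher and 1 lower (median 0.63), and of 8 macrophage markers 1 was higher. The share of all genes called in either direction there was 43.4%. The part of these cells in the Jun value was not tested.

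For the other 6 members the 24 h intervals of the tested probes included 0 with either oestrogen. With E2 they were -1.34 to 0.46 for Fos, -0.84 to 0.19 for Fosb and -1.15 to 0.35 for Fosl1. They were -0.67 to 0.42 for Fosl2, -0.62 to 0.13 for Junb and -0.53 to 0.30 for Jund. These intervals leave room for changes of up to 1.34 on the log2 scale in Fos, so a missing call there does not show a return to the vehicle level. The 24 h result for E3 rests partly on 1 array: E3 24 h replicate 2 was the highest of its group for 6 of the 7 members, and it also had the lowest share of spots well above background, 63.7%. Without it the change of Fosl2 was -0.43 (adjusted p = 0.058) in place of -0.04, that of Fos was -0.89 (adjusted p = 0.15) in place of -0.47, and 0 members were called. Without vehicle replicate 2, which was high for Fos, the change of Fos was 0.00 with E2 and -0.03 with E3. Quantile normalization and array weights called more members at 24 h: Junb and Jund, or Fos and Junb, lower with E2, and Jun, or Jun and Fos, lower with E3.

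**Figure D3:**
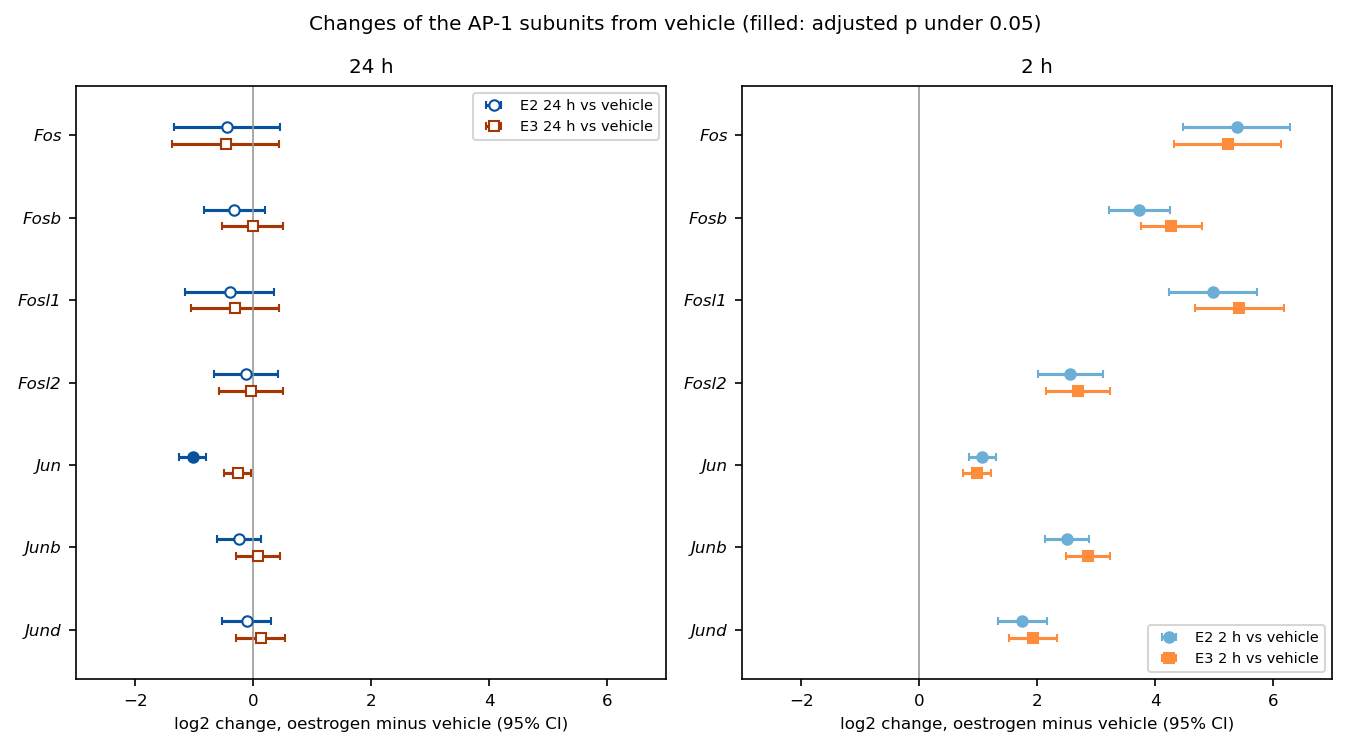
Log2 change from vehicle (horizontal axis) with 95% intervals for each AP-1 gene, E2 as circles and E3 as squares, at 24 h on the left and 2 h on the right; filled symbols have an adjusted p under 0.05. At 2 h all 14 symbols are filled and lie right of 0; at 24 h only Jun with E2 is filled, at -1.03.

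Between 2 h and 24 h all 7 members were lower at the later time with either oestrogen. In E2 24 h against E2 2 h, 7 of 7 were called, against 52.3% of all genes, with a median change of -2.75, against 0.13 for all genes. In E3 24 h against E3 2 h, 7 of 7 were called, against 49.7% of all genes, with a median of -2.78, against 0.19 for all genes. Without Fosl1, whose probe was not well above background on every 24 h array, 6 of 6 were called with either oestrogen. With E2 the change was -5.82 ± 0.41 for Fos (SE; adjusted p = 7.4e-07, limma) and -1.86 ± 0.19 for Jund (adjusted p = 8.8e-06). With E3 it was -5.70 ± 0.41 for Fos (adjusted p = 1.1e-06) and -1.25 ± 0.11 for Jun (adjusted p = 3.4e-06).

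One slide held E2 24 h replicate 2 with E2 2 h replicates 2 and 3. Within it all 7 members were lower at 24 h, with differences between -6.08 for Fos and -1.90 for Jund, resting on 1 array at 24 h. No slide held both E3 24 h and E3 2 h. A fit to the oestrogen arrays alone, without vehicle, had slide as a fixed block. Replicates 1 and 3 of E3 24 h had a slide to themselves, so its E3 24 h estimates rest on replicate 2. Its E3 changes were -4.39 for Fos, -4.24 for Fosb, -5.81 for Fosl1 and -1.62 for Fosl2. They were -1.04 for Jun, -2.31 for Junb and -1.36 for Jund. Not every member kept its call there, and with 1 such array the calls cannot be weighed. Markers of other cells also differed between the times. Of 10 stromal markers 7 were called higher and 1 lower in E2 24 h than in E2 2 h, and 9 higher in E3 24 h than in E3 2 h (medians 1.35 and 1.19). Of 8 myometrial markers 6 were higher with E2 and 5 with E3, and of 8 macrophage markers 3 were higher with E2 and 8 with E3. Over all genes 52.3% were called in either direction with E2 and 49.7% with E3, so the macrophage share with E2 was below the background. The part of these cells in the AP-1 values was not tested.

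E2 and E3 did not differ by the test at 2 h for any member: 0 of 7 were called by limma, as were 0% of all genes, of which 750 had an unadjusted p under 0.05. The difference, E2 minus E3, was largest for Fosb at -0.54, with a 95% interval of -1.06 to -0.02, unadjusted p = 0.043 and adjusted p = 1.00 (limma). All 3 E2 arrays lay below all 3 E3 arrays for Fosb, Junb and, barely, Fosl1. The highest E2 array for Fosl1 was at -1.124 and the lowest E3 array at -1.117. The share of all genes with such a separation was not counted. The intervals of Fosl1 (-1.20 to 0.31), Junb (-0.73 to 0.02) and Jun (-0.14 to 0.32) included 0, and that of Jun was the narrowest. These intervals do not make the oestrogens alike in their action on AP-1 genes: for Jun the interval bounds any difference at 0.32 on the log2 scale, and for Fosl1 it reaches -1.20.

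At 24 h the oestrogens differed for Jun. Jun averaged 1.08 ± 0.06 in E2 24 h and 1.84 ± 0.14 in E3 24 h (SD, n = 3 each), and all 3 E2 arrays lay below all 3 E3 arrays. The difference was -0.76 ± 0.11 (SE), with an interval of -0.99 to -0.53 (1.70-fold lower with E2; adjusted p = 8.5e-04, limma). It was 1 of 7 members called, against 15.7% of all genes. The other 6 had adjusted p-values from 0.24 (Junb) to 0.97 (Fos). The change of the E2 minus E3 difference between 2 h and 24 h was also called for Jun alone, at -0.85 ± 0.15 (SE), interval -1.18 to -0.52 (adjusted p = 0.0099, limma), against 6.22% of all genes. With only the 2 groups of the comparison in the fit, the Jun difference at 24 h kept its size and had an adjusted p of 0.057. With slide as a fixed block in a fit without the vehicle arrays it was -0.98. The change of the difference between the times was -1.13 there, and neither was called. Replicates 1 and 3 of E3 24 h had a slide to themselves, so in that fit E3 24 h rests on replicate 2 alone. It therefore cannot tell the Jun difference and slide apart. Within scan day 1 the difference at 24 h was -0.73 with an adjusted p of 0.0073.

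Marker levels of other cells were set beside this Jun difference. Summed over 8 macrophage markers, the level ran from 17.6 to 22.4 in E2 24 h and from 22.3 to 49.1 in E3 24 h, on the linear scale relative to the 75th percentile, and all 8 were well above background on every array. The sum of 9 lymphocyte markers ran from 1.13 to 2.12 in E2 24 h and from 2.17 to 4.94 in E3 24 h, and 7 of the 9 were well above background on every array. The sum of 7 endothelial markers ran from 14.7 to 16.5 in E2 24 h and from 19.6 to 27.1 in E3 24 h. By the same test 2 of 8 macrophage, 2 of 9 lymphocyte and 1 of 7 endothelial markers were called lower with E2 than with E3, where 15.7% of all genes were called in either direction. The sums for epithelium, stroma, myometrium, eosinophils and neutrophils, erythrocytes and adipocytes overlapped between these groups. That for epithelium ran from 221 to 302 in E2 24 h and from 208 to 348 in E3 24 h. Of 10 stromal markers 1 was called lower with E2 than with E3, and of 10 epithelial and 8 myometrial markers 0 were called. The part of any of these cells in the Jun difference was not tested.

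**Figure D4:**
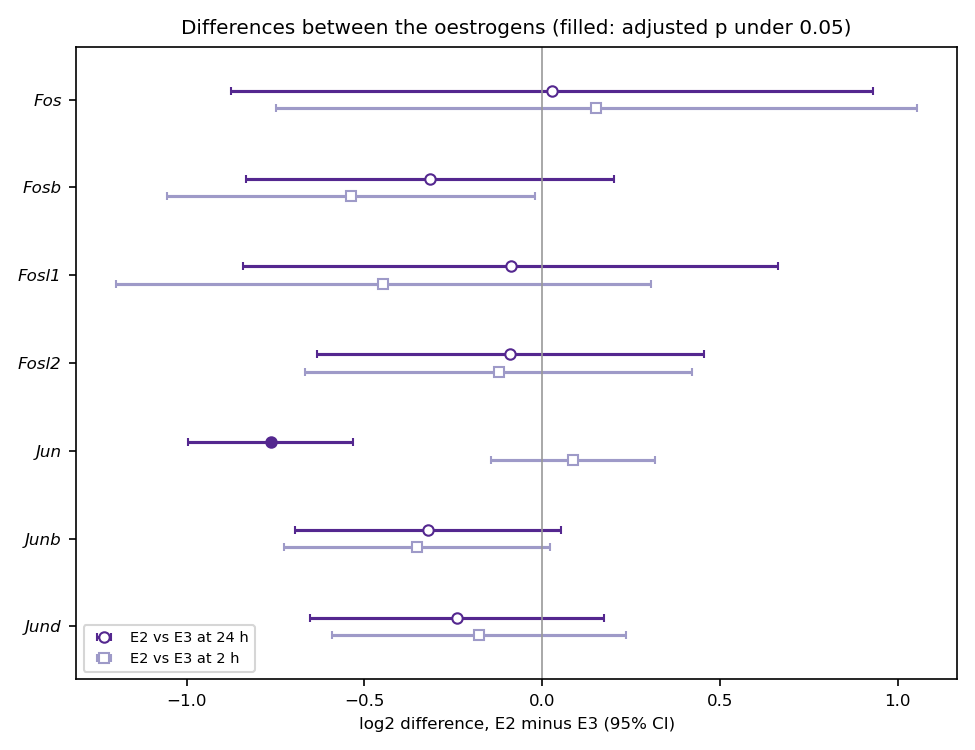
Log2 difference E2 minus E3 (horizontal axis) with 95% intervals for each AP-1 gene at 24 h (circles) and 2 h (squares); filled symbols have an adjusted p under 0.05. Jun at 24 h, at -0.76, is the only filled symbol, and the Fosb interval at 2 h ends just below 0.

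The genes that most resembled each member over the 15 arrays were found by the root mean square difference between log2 values, each gene centred on its own mean. For Fos these were Ccn1 (0.44), a matrix protein gene and textbook early gene, Csrnp3 (0.45) and Phyhip (0.53). For Fosl1 they were Rnd1 (0.42), Ccn1 (0.42) and Phyhip (0.50). Fos and Fosl1 had each other as nearest member, at 0.60, while the closest pair of members was Fosl2 and Junb, at 0.22. Fosb was nearest to Errfi1 (0.29), an inhibitor of the EGF receptor, Plk2 (0.33) and the oxytocin receptor gene Oxtr (0.36). Fosl2 was nearest to Nrip1 (0.16), a nuclear receptor corepressor, Eva1a (0.21) and Midn (0.23). Junb was nearest to the member Fosl2 (0.22) and then to Zfp36 (0.23), Nrip1 (0.24) and Bcar3 (0.26).

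The genes most like Jun shared its drop at 24 h with E2. They were F3 (0.16), which encodes tissue factor, Kdm7a (0.17), a histone demethylase gene, and Actn2 (0.18). In E2 24 h against vehicle, F3 changed by -1.06 ± 0.20, Kdm7a by -0.78 ± 0.12 and Actn2 by -0.76 ± 0.13 (SE), and all 3 were called lower (adjusted p from 3.5e-04 to 0.0012, limma). They were picked for this likeness, so their values describe it and do not test it. Jund was nearest to Mras (0.11), Ptpn1 (0.18) and Klhdc8b (0.19).

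The 5 lists below were written from general knowledge of AP-1, with earlier results of these data known. Their called shares are therefore a description and no independent test. Partner and related leucine zipper genes formed the first list. Of 23 tested, 11 were called higher and 4 lower in E2 2 h than in vehicle, and 11 higher and 6 lower in E3 2 h. Over all genes 38.7% were called with E2 and 40.2% with E3. The median change of the list was 0.44 with E2 and 0.47 with E3. Atf3, a stress-induced partner of Jun proteins, rose by 3.73 ± 0.22 in E2 2 h (SE; adjusted p = 3.1e-07, limma). In E3 2 h it rose by 3.84 ± 0.22 (adjusted p = 2.2e-07). Cebpb rose by 3.39 ± 0.22 with either oestrogen, Maff, a small Maf protein, by 3.03 ± 0.22 with E2 and 3.16 ± 0.22 with E3, and Jdp2, a repressor that dimerizes with Jun proteins, by 2.72 ± 0.16 and 2.49 ± 0.16. Batf, a partner of Jun proteins in lymphocytes, rose by 0.89 with E2 and 0.87 with E3. Bach1 fell by 0.88 with E2 and by 1.04 with E3, and Ddit3 fell by 0.82 with E2 and by 0.50 with E3.

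At 24 h this list held 1 gene called higher and 11 lower in E2 24 h than in vehicle, and 1 higher and 3 lower in E3 24 h. Over all genes 43.4% were called in either direction with E2 and 20.4% with E3. The shares of the list in either direction, 12 and 4 of 23, were near these. Its calls with E2 were mostly falls, whereas over all genes 4279 were higher and 4537 lower. The list median was -0.43 with E2 and -0.03 with E3, against -0.02 and -0.004 for all genes. Atf3 gave -1.53, -1.73 and -1.75 in E2 24 h, -1.22, -0.28 and -0.78 in E3 24 h, and -0.42, -0.56 and -0.48 in vehicle. All 3 E2 arrays were below all arrays of E3 24 h and vehicle, while E3 24 h overlapped vehicle. Maff gave -1.25, -1.70 and -1.81 in E2 24 h, -0.77, -0.15 and -0.92 in E3 24 h, and -0.14, -0.10 and -0.19 in vehicle. Like Jun, both were called lower in E2 24 h than in vehicle, Atf3 by 1.18 ± 0.22 and Maff by 1.44 ± 0.22 (SE), and lower than in E3 24 h, with differences of -0.91 (adjusted p = 0.018) and -0.98 (adjusted p = 0.011, limma). In E2 24 h against E3 24 h the list had 1 higher and 8 lower of 23, where 15.7% of all genes were called, with a median of -0.33, against -0.02 for all genes.

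Among 23 upstream kinases and activators, 8 were called higher and 5 lower in E2 2 h than in vehicle, and 7 higher and 4 lower in E3 2 h. The share of all genes called was 38.7% with E2 and 40.2% with E3. Srf, the serum response factor that drives Fos transcription, rose by 1.85 ± 0.13 with E2 and by 2.05 ± 0.13 with E3 (SE; adjusted p = 7.9e-07 and 3.9e-07, limma). Map2k1, the kinase that activates ERK, rose by 1.76 with E2 and by 1.53 with E3, while Mapk3, which encodes ERK1, fell by 0.56 with E2 and by 0.57 with E3. Map3k1 fell by 0.57 with E2 and by 0.56 with E3. The median change of this list was 0.02 with E2 and 0.07 with E3.

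Of 16 genes of AP-1 turnover and restraint, 5 were called higher and 2 lower in E2 2 h, and 6 higher and 1 lower in E3 2 h, against vehicle. These shares were near those of all genes, 38.7% with E2 and 40.2% with E3. Zfp36, which encodes a protein that speeds the decay of early response mRNAs, rose by 2.32 ± 0.14 with E2 and by 2.58 ± 0.14 with E3. Tob1, an antiproliferative gene, rose by 2.98 and 2.95. Tsc22d3, a glucocorticoid-induced gene whose protein binds AP-1, fell by 1.02 with E2 and by 1.12 with E3. At 24 h this list had 2 higher and 5 lower with E2, and 0 higher and 1 lower with E3, where 43.4% and 20.4% of all genes were called.

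Textbook AP-1 target genes moved in both directions. Of 22 tested, 9 were called higher and 3 lower in E2 2 h, and 10 higher and 5 lower in E3 2 h, against vehicle, where 38.7% and 40.2% of all genes were called. Hbegf, an EGF receptor ligand, rose by 2.95 ± 0.14 with E2 and 3.21 ± 0.14 with E3, and Plaur, the urokinase receptor gene, by 2.73 ± 0.20 and 2.96 ± 0.20 (SE; all called by limma). Il6 was called higher with either oestrogen (2.44 ± 0.51 and 3.29 ± 0.51) and is counted above. It entered the test only through the 2 h groups, where it was high, so its call is no independent result. It was well above background on 2 of 3 vehicle arrays, so the size of its change is uncertain too. Spp1 fell by 1.77 with E2 and by 2.42 with E3, and the stromelysin gene Mmp10 fell by 1.13 with E2 and by 1.47 with E3. The stromelysin gene Mmp3 was not called, with changes of -0.89 ± 0.64 and -0.73 ± 0.64. At 24 h the list had 4 higher and 6 lower with E2, and 5 higher and 2 lower with E3, where 43.4% and 20.4% of all genes were called. Ccnd1, the cyclin D1 gene, was lower at 24 h: its change was -0.53 ± 0.16 in E2 24 h against vehicle (SE; adjusted p = 0.022, limma). In E3 24 h it was -1.16 ± 0.16 (adjusted p = 0.0029), and the E2 minus E3 difference was 0.64 (adjusted p = 0.023).

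Heat shock and tissue handling genes, which respond to stress of the animal or the tissue, moved with the members at 2 h. Of 7 tested, 5 were called higher and 0 lower in E2 2 h, and 7 higher and 0 lower in E3 2 h, against vehicle, with medians of 0.52 and 0.84. The share of all genes called was 38.7% and 40.2%. Hsph1 rose by 1.64 ± 0.21 with E2 and 1.80 ± 0.21 with E3, and Dnajb1 by 1.07 ± 0.12 and 1.51 ± 0.12 (SE; all called by limma). At 24 h limma called 0 of the 7 with either oestrogen, against 43.4% of all genes with E2 and 20.4% with E3. Whether a response to handling has a part in the AP-1 values at 2 h was not tested.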

How the data were processed

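The authors deposited, per the file headers, intensity values: the processed signal of Agilent Feature Extraction 9.5.3.1 (9.5 per the submitters' processing notes), background-subtracted within each array and not scaled between arrays. The series value table was equal to it. Flagged outlier spots were left out and spots of a probe averaged. From every log2 value the 75th percentile of its array, taken across non-control probes, was subtracted. Where a gene had several probes, the one of highest mean stood for it, and it entered the test when some group had it well above background on each of its 3 arrays. Limma 3.58.1 in R 4.3.3 was fitted with 1 mean per group to all 15 arrays, with Benjamini-Hochberg adjustment over 20311 genes at a threshold of 0.05; intervals are at 95%. The fit was tested on simulated data.

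Genes named beside the members follow a rule: for each member the 3 genes with a symbol most like it, from each list the 2 largest rises and 2 largest falls called with both oestrogens at 2 h, and Atf3, Jdp2, Maff, Batf, Srf, Mmp3, Plaur and Ccnd1. F3, Kdm7a and Actn2 come from that rule. Members and lists were chosen with earlier results of these data known. Probe positions are on mm7, per the file headers; promoter sequences are RefSeq's on GRCm38.p6, and no annotation of mm7 was used here, so exon and UTR positions are not given. Replicate numbers did not pair the arrays: correlations of deviations between same-numbered arrays ran from -0.22 to 0.21, with 7 of 30 over 0.1. The 32 alternatives covered normalization, scale, background, filters, probes, threshold, variance, replicate number, slide, scan day and leaving out each of 15 arrays.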

Additional observations from a re-analysis of the deposited data

Results flagged for a closer look

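Jun differed between the oestrogens at 24 h, by -0.763 on the log2 scale, E2 minus E3 (adjusted p = 8.5e-04, limma). It was picked out because the test of the difference itself passed the threshold. Leaving out each of the 15 arrays in turn gave -0.84 to -0.70, with an adjusted p of 0.0052 or less. It was not called in a fit to the 2 groups alone (adjusted p = 0.057, limma). Nor was it called with slide as a fixed block and no vehicle arrays (-0.98), where E3 24 h rests on replicate 2 alone.

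The change of that difference between the times, 24 h minus 2 h, was -0.850 for Jun (adjusted p = 0.0099, limma), and was picked out for the same reason. Leaving out each array in turn gave -0.94 to -0.79, with adjusted p-values from 0.0075 to 0.034. With slide as a fixed block and no vehicle arrays it was -1.13 and not called, in a fit where E3 24 h rests on replicate 2 alone.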

How the results depend on the processing

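Of the 1923 values of the 63 member changes under other settings, 0 reversed a call, 8 lost the threshold and 7 gained it. A further 3, taken within a single slide with 1 E2 24 h array, moved by more than the spread between replicates. These were E2 24 h minus E2 2 h for Fos (-6.08), Fosb (-3.81) and Jun (-2.17). Quantile normalization called 3 members in place of 1 in E2 24 h against vehicle (Junb -0.56 and Jund -0.54 added) and 1 in place of 0 in E3 24 h against vehicle (Jun -0.40, adjusted p = 0.026). Array weights gave 3 (Fos -1.08 and Junb -0.39 added) and 2 (Jun -0.37, adjusted p = 0.016; Fos -1.35, adjusted p = 0.034). Fitting only the 2 groups compared gave 0 in place of 1 for E2 against E3 at 24 h; fewer arrays then set the spread. Slide as a fixed block in a fit without the vehicle arrays changes the block and the samples together. Replicates 1 and 3 of E3 24 h had a slide to themselves, so its E3 24 h estimates rest on replicate 2. Calls were lost there for E2 against E3 at 24 h and for E3 24 h against E3 2 h. The call of the difference of differences was lost as well (Jun -1.13). With 1 such array these lost calls cannot be weighed. Leaving out each array in turn kept the counts at 1 and 0 (E2 and E3 24 h against vehicle), 7 and 7 (2 h against vehicle), 0 and 1 (E2 against E3 at 2 h and 24 h), 7 and 7 (24 h against 2 h) and 1 (difference of differences). With the replicate block the counts were 1, 0, 7, 7, 0, 1, 7, 7 and 1 in the same order, so it changed no call; 5 of 15 arrays correlated best with an array of their own number. The array median as the scale moved the median of all genes in E2 24 h against vehicle to 0.20 and in the difference of differences to 0.11, with no change in the counts. A stricter filter, well above background on each of the 15 arrays, dropped Fosl1 and left 6 of 6 members called at 2 h. The limits are 3 arrays a group, the vehicle slide, and the dim signals of Fosl1, Fosb and, among the list genes, Il6.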
